A study of Mus musculus with 9 samples.

Results

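Cd28, Ctla4 and Icos lie side by side on mouse chromosome 1 and encode related receptors of T cells. Their accessibility to Tn5, the transposase that ATAC-seq uses to cut and tag open chromatin, was followed in CD8 T cells from the draining lymph nodes of mouse melanomas. All were P14 cells, whose transgenic T cell receptor recognises the GP33-41 peptide of the lymphocytic choriomeningitis virus glycoprotein on H-2Db. Naive donor cells from P14 mice with a TCF-1-GFP reporter, labelled WT and C57BL/6, were given at 500000 per host to B6 mice 8 days after these had received B16.F10 melanoma cells that express the viral glycoprotein. The 3 groups are CD45.1+CD44+ CD8 T cells sorted 4, 8 and 21 days after transfer, with 3 libraries of 50000 cells in each, and every host carried the tumor. Nothing in the labels tells if same-day libraries came from separate animals or from a pool, so the errors and p-values below describe the spread between libraries, which may be technical.

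The material was 1 list of accessible peaks per library. Overlapping peaks of the 9 lists, sharing 1 base or more, were joined into 62963 union regions, and a list calls a region where one of its peaks falls in it. The cluster comprises the regions that overlap the body of Cd28, Ctla4 or Icos, and those whose nearest protein-coding gene end within 100 kb is an end of one of them. There were 52 such regions, 17 at Cd28, 14 at Ctla4 and 21 at Icos, and all 52 enter the counts of regions below.

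CD28 and ICOS are costimulatory receptors. CD28 binds CD80 and CD86 on antigen-presenting cells and adds to the signal of the T cell receptor in naive cells, while ICOS binds ICOS ligand, is induced by activation and signals through phosphoinositide 3-kinase. CTLA-4 binds the same ligands as CD28 with higher affinity, removes them from the partner cell and restrains activation, and antibodies that block it are used against melanoma.

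The genes were spread over 253.9 kb of GRCm38.p6, the assembly of mm10, with Cd28 at chr1:60746388-60773359, Ctla4 at chr1:60909025-60915832 and Icos at chr1:60960773-61000322. Between Cd28 and Ctla4 lay 135.7 kb and between Ctla4 and Icos 44.9 kb, and neither gap held another protein-coding gene. The next protein-coding genes were Raph1, 179.3 kb before Cd28, and Pard3b, 638.3 kb after Icos. The table of gene positions gives no exons or UTRs, so regions are placed inside a gene body, before its lower coordinate or after its upper one.

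The promoter of Ctla4 is shown because its peak was called in every list and shifted in rank between days. It is the 250 bases before the start site, chr1:60908775-60909024 on the plus strand of GRCm38.p6, from RefSeq, whose promoter table matched 1 of the 3 genes. The union region chr1:60908729-60909248 covers all of it and reaches into the gene.

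Ctla4 promoter: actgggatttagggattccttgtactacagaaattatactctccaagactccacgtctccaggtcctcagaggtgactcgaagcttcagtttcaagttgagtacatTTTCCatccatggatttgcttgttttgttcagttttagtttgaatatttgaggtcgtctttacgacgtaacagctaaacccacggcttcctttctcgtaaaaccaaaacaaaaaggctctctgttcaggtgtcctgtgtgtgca

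The capitals mark the single match of GGAAA, the core read by NFAT factors, on the minus strand, first matched at position −144 counted from the start site. That core is common, and 55.6% of 32851 RefSeq promoter windows of the same length held it on either strand. Neither strand held TGANTCA (AP-1), CTTTGA (TCF and LEF factors), TGTGGT (RUNX factors), TGACG (CREB factors), TATAAA (the TATA box) or AGATAA (bound by GATA factors). These are found in 6.75%, 13.8%, 14%, 17.8%, 12.4% and 9.99% of the windows, in that order, and a missing match says only that these letters are not in this window.

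Lists of the later days were longer, with 20534 ± 1496 peaks on day 4, 48811 ± 1776 on day 8 and 48420 ± 2832 on day 21 (SD, n = 3 lists each), and they called 30.2%, 74.5% and 73.9% of all union regions. The files give no read totals. At the 15109 regions (24% of all) that every list called, the median summit held 29 to 36 tags on day 4, 61 to 70 on day 8 and 63 to 75 on day 21, so a region missing from a day 4 list may lie below what that list could detect. Lists of 1 day differed in their summit tags by less than sampling noise (chi-square per region 0.417 to 0.444 over 9 same-day pairs, against 0.965 to 1.19 over 27 pairs of different days). These tags are of regions called in every list, which leaves out low values, and the pairs of different days were of the same regions. What part this had in the values below 1 was not tested. These values do not tell if same-day libraries were separate. Their sets of called regions were not identical (Jaccard index 0.744 to 0.794), and the lists were kept as separate lists. In bulk cells, fewer cells with an open site and less opening per cell cannot be told apart.

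Few regions of the cluster were called on day 4 and most of them on the later days. The 3 day 4 lists called 11, 13 and 13 of the 52 regions, the day 8 lists 34, 38 and 41, and the day 21 lists 39, 36 and 41. The days therefore did not overlap between day 4 and either later day, while days 8 and 21 did. As a share of the 52 regions this was 23.7% on day 4, 72.4% on day 8 and 74.4% on day 21, close to the shares of all union regions given above.

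The 3 genes started from different points. At Icos the day 4 lists called 2, 3 and 3 regions of 21, the day 8 lists 13, 14 and 15, and the day 21 lists 15, 14 and 16. At Ctla4 the numbers were 5, 5 and 4 of 14 on day 4, 11 in every list on day 8, and 12, 12 and 13 on day 21. At Cd28 they were 4, 5 and 6 of 17 on day 4, 10, 13 and 15 on day 8, and 12, 10 and 12 on day 21. On day 4 this was a mean share of 12.7% at Icos, 33.3% at Ctla4 and 29.4% at Cd28, and on day 21 it was 71.4%, 88.1% and 66.7%. Day 8 varied most at Cd28, where its 3 lists spanned 5 regions, and least at Ctla4.

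**Figure D1:**
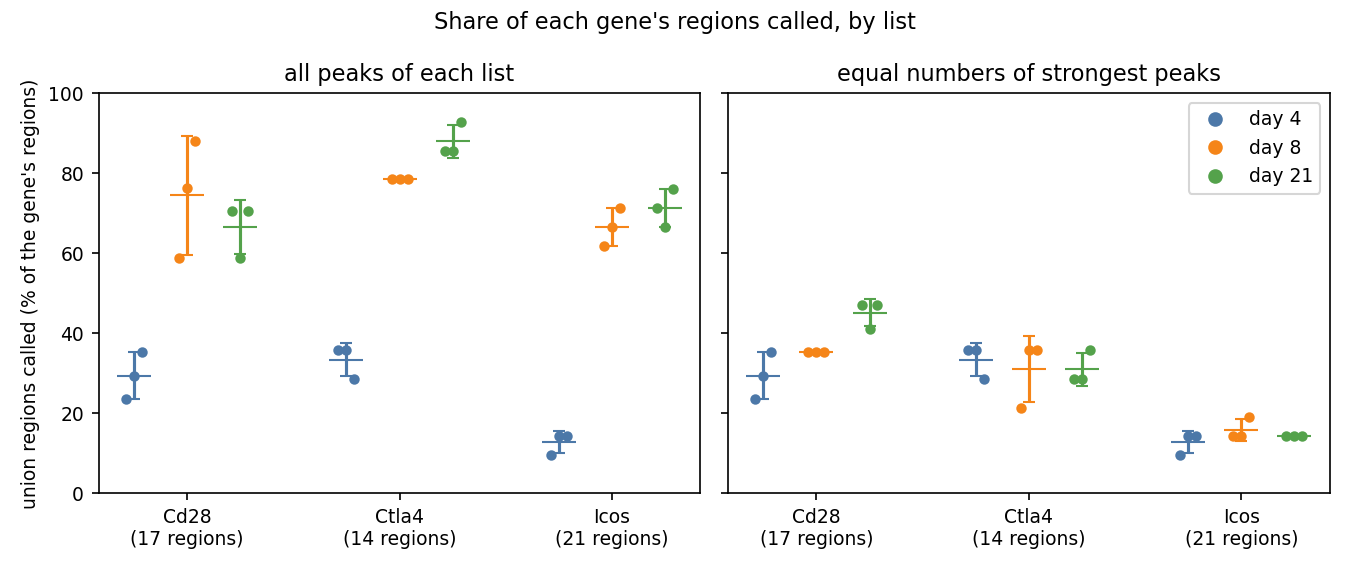
Share of each gene's union regions called in each list (%, vertical axis), for all peaks of each list on the left and for the 19499 strongest peaks of each list on the right. Points are lists, horizontal lines are means and error bars are SD (n = 3 lists). On the left all 3 genes are higher on days 8 and 21 than on day 4, with Icos lowest on day 4 at 12.7%, and on the right Icos stays between 12.7% and 15.9% on the 3 days.

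When each list was cut to its 19499 strongest peaks by −log10 p, as many as the shortest list held, most of the later gains were gone. Icos then had 3, 3 and 4 regions on day 8 and 3 in every list on day 21, against 2, 3 and 3 on day 4. Ctla4 had 3, 5 and 5 on day 8 and 4, 4 and 5 on day 21, against 5, 5 and 4 on day 4. Cd28 had 6 in every list on day 8 and 8, 7 and 8 on day 21, against 4, 5 and 6 on day 4. The mean at Cd28 was 7.67 ± 0.577 regions on day 21 and 5 ± 1 on day 4 (SD, n = 3 lists each). At Icos it was 3 on day 21 and 2.67 ± 0.577 on day 4, and at Ctla4 4.33 ± 0.577 and 4.67 ± 0.577.

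Region by region, 10 of the 52 (19.2%, against 24% of all union regions) were called in all 9 lists, and 13 in no day 4 list and all 6 later lists. A further 6 were called in some but not all day 4 lists, 12 in no day 4 list and 2 to 5 later lists, and 11 in a single list. The median width was 609.5 bp (390 to 964) for the 10 always-called regions, 473 bp (370 to 789) for the 13 and 586 bp (303 to 1156) for the 6. It was 312 bp (203 to 574) for the 12 and 237 bp (200 to 367) for those of a single list. A union region spans the peaks of every list that calls it, so its width tends to grow with the number of lists. Of the 10, Cd28 and Ctla4 held 4 each and Icos 2.

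**Figure D2:**
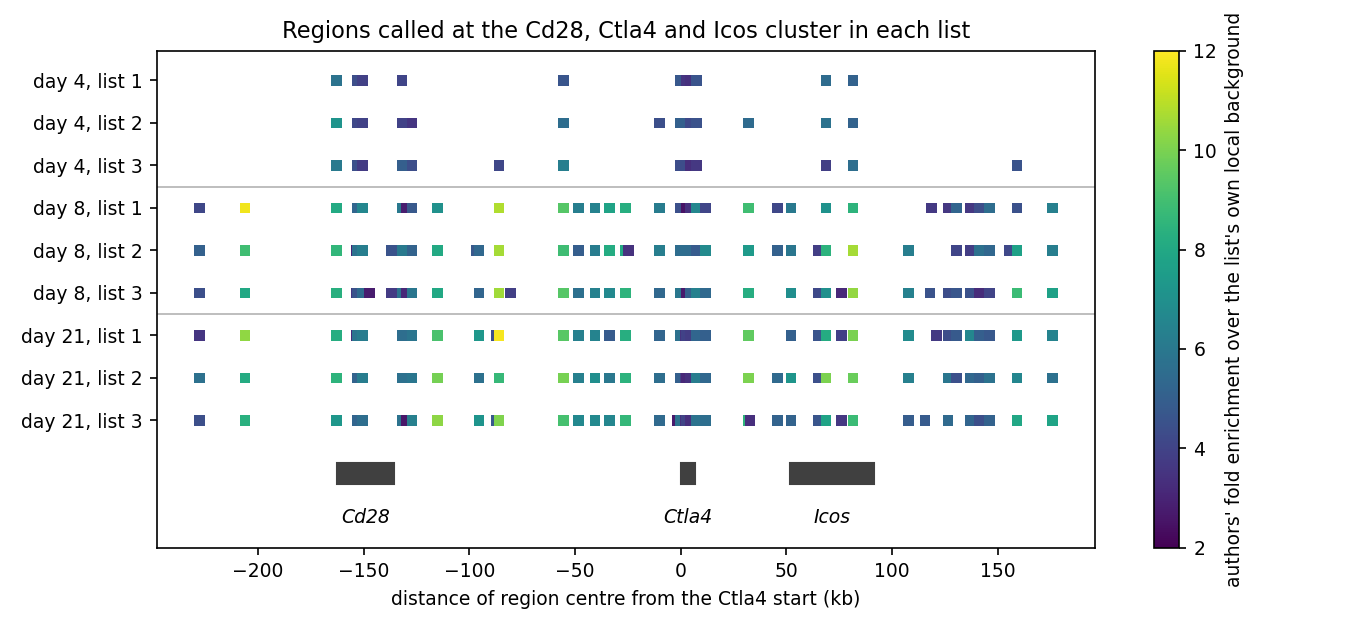
Every called region of the cluster in each of the 9 lists (vertical axis), by the distance of the region's centre from the start of Ctla4 (kb, horizontal axis), with the 3 gene bodies as bars below. Colour is the authors' fold enrichment of the region's highest peak, which is relative to each list's own background. Day 4 lists show 11 to 13 regions and later lists 34 to 41, with the added ones mostly between and beyond the genes.

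Most of what was added lay outside the genes. Of the 15 regions that overlap one of the gene bodies, 7 were called in all 9 lists and 1 was gained on day 8, meaning called in 3 of 3 day 8 lists and 0 of 3 day 4 lists. Of the 37 regions between and beyond the genes, 3 were called in all 9 lists and 13 were gained. Over all union regions the same contrast was smaller, with 23.8% of regions in gene bodies gained and 29.6% always called, against 29.3% and 14.1% of those outside. The contrast at the cluster was seen after its values were known and was not tested.

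In total, 14 of the 52 regions (26.9%) were gained on day 8 relative to day 4, where 25.7% of all union regions were, so the cluster stood near the background. On day 21 relative to day 4 the number was 18 (34.6%), against 25.3% of all union regions. None was lost, as was the case for nearly all regions (0.00953% and 0.00794% lost). Between days 21 and 8 the cluster gained 1 region (1.92%, against 1.02% of all) and lost 0 (against 1.09%).

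The single late gain was at chr1:60910868-60911105, inside Ctla4. It was called in all 3 day 21 lists with fold enrichments of 3.47, 3.94 and 3.42 and in no list of day 8 or day 4. These are low folds, since the median of the 15109 common regions was 8.78 on day 21. A neighbour at chr1:60911620-60911922 was called in 3 day 21 lists, 2 day 8 lists and 1 day 4 list, at folds of 2.47 to 4.01. Further along the gene, chr1:60913276-60913754 was called in all 9 lists at folds of 3.32 to 5.49.

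The fold enrichments used here are the authors' values, each relative to the local background of its own list, and they describe peaks within a list. Icos, the gene with fewest regions on day 4, had 2 always-called regions, both inside the gene. At chr1:60990054-60991017, 29.8 kb after the lower end of Icos and the widest always-called region of the cluster, the folds were 5.12, 5.13 and 5.58 on day 4, 8.48, 10.7 and 10.4 on day 8, and 10.0, 9.72 and 8.82 on day 21. The median over common regions was likewise 5.73 on day 4, 8.98 on day 8 and 8.78 on day 21. The other, chr1:60977655-60978044, had folds of 5.50, 5.77 and 3.87 on day 4, 7.09, 8.44 and 6.99 on day 8, and 8.10, 10.0 and 7.81 on day 21.

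No region covered the lower end of Icos. The nearest, chr1:60961002-60961396, has its centre 426 bp inside the gene and was called in no day 4 list and all 6 later lists, with folds of 6.06, 5.94 and 6.89 on day 8 and 5.02, 7.20 and 5.15 on day 21. Before the gene, chr1:60940798-60941572 lay 19.2 kb away within the noncoding gene Gm34649. It was called in 1 day 4 list, at 5.45, and in all later lists, at 8.94, 7.41 and 8.22 on day 8 and 9.57, 10.0 and 8.48 on day 21.

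After Icos there was a string of 13 regions, none called in all day 4 lists. Of these, 4 were called in all 6 later lists and no day 4 list, at 45.5, 49.9, 54.7 and 84.4 kb beyond the gene. Their folds were modest, between 3.23 and 5.77 at chr1:61050197-61050702 and chr1:61055026-61055483, and between 5.70 and 7.85 at chr1:61084725-61085302. At chr1:61045833-61046621 the folds were 6.61, 5.34 and 5.21 on day 21 and 3.61, 3.81 and 4.50 on day 8. Folds of different lists have different backgrounds, and the change of this region in rank, given below, did not pass. A further region 67.6 kb beyond the gene, chr1:61067929-61068503, was called in 1 day 4 list and all later ones.

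Before Ctla4 the later lists shared a ladder of regions that began with one already called on day 4. That region, chr1:60853254-60853900, 55.1 kb before the gene, was called in all 9 lists at folds of 4.63, 5.52 and 6.22 on day 4, 9.35, 8.88 and 9.35 on day 8, and 9.42, 9.95 and 9.06 on day 21. Its summit lay between bases 60853547 and 60853559 in all 9 lists. The next 4 regions, 48.0, 40.3, 33.4 and 25.9 kb before Ctla4 and all within the noncoding gene Gm38137, were called in no day 4 list and in all 6 later lists.

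The highest of these 4 was chr1:60882737-60883168, with folds of 8.29, 8.05 and 8.47 on day 8 and 8.26, 8.42 and 8.65 on day 21. At chr1:60868291-60868763 they were 6.43, 6.18 and 6.34 on day 8 and 6.46, 6.90 and 6.70 on day 21. In both regions all later lists lay close together. After Ctla4, chr1:60916287-60916934 was called in all 9 lists 0.455 kb beyond the gene, and chr1:60920466-60920890 was gained on day 8 at 4.63 kb.

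At Cd28 the always-called regions sat at the gene itself. The region over its lower end, chr1:60745895-60746592, had folds of 5.82, 7.17 and 6.08 on day 4, 8.06, 8.60 and 8.30 on day 8, and 8.23, 8.48 and 7.28 on day 21. A pair followed inside the gene, chr1:60755788-60756229 with folds of 4.18 to 5.90 and chr1:60758040-60758729 with 3.72 to 6.64 over the 9 lists, and 1 more 3.42 kb after it, chr1:60776777-60777348, with 3.98 to 6.07.

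Away from the gene, 3 regions of Cd28 were gained on day 8 and still called on day 21. The strongest, chr1:60702619-60703125, lay 43.3 kb before the gene and had folds of 11.8, 8.92 and 8.00 on day 8 and 10.3, 8.10 and 8.34 on day 21. Within the noncoding gene 2310016D23Rik, chr1:60793757-60794126 had 9.15, 9.90 and 10.3 on day 21, against 7.02, 8.02 and 8.00 on day 8. The weakest of the 3, chr1:60681168-60681573, lay 64.8 kb before the gene and had folds of 4.15 to 5.05 on day 8 and 3.54 to 5.70 on day 21. At chr1:60822888-60823304, 49.5 kb after Cd28, 1 day 4 list had a peak at 4.11, and the later lists had 10.8, 10.7 and 10.6 on day 8 and 11.9, 8.71 and 10.1 on day 21. The 11.9 here and the 11.8 before the gene were the highest single folds of the cluster.

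Between days 8 and 4, Icos was the 1 member whose number of regions rose beyond that of the lists as a whole. The number of regions called at a gene, plus 0.5, was divided by the number of regions the list called relative to the mean list and compared on a log2 scale with limma over all 7831 genes with at least 3 union regions. Icos had 14 ± 1 regions on day 8 and 2.67 ± 0.577 on day 4 (SD, n = 3 lists each), a log2 difference of 0.91 ± 0.15 SE (limma, Benjamini-Hochberg adjusted p = 4.78e-08). This lay at the 87.4 percentile of all genes, of which 17.7% were called higher and 24.9% lower. Without division by list length 6796 genes were higher and 3 lower.

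Ctla4 had 11 regions in each day 8 list and 4.67 ± 0.577 on day 4, a log2 difference of −0.14 ± 0.15 SE with a 95% interval of −0.43 to 0.15 (limma, adjusted p = 0.451). Cd28 had 12.7 ± 2.52 on day 8 and 5 ± 1 on day 4, a difference of −0.05 ± 0.15 SE with an interval of −0.33 to 0.24 (limma, adjusted p = 0.817). Neither passed, and the median of all genes was −0.14. The number of union regions set an upper limit on each, since with all of them called on day 8 Ctla4 could have reached 0.19, Cd28 0.38 and Icos 1.48. This limit lay below 0 for 89.0% of the genes called lower on day 8 against day 4 and for 90.6% of those on day 21 against day 4, so for these the number of union regions and the list length fixed the sign. Whether Icos differed from Ctla4 or Cd28 was not tested.

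Day 21 against day 4 gave the same picture. Icos had 15 ± 1 regions on day 21 and 2.67 ± 0.577 on day 4, a log2 difference of 1.02 ± 0.15 SE (limma, adjusted p = 9.40e-10), where 17.1% of genes were higher and 24.6% lower. Ctla4 had 12.3 ± 0.577 on day 21 and 4.67 ± 0.577 on day 4 (0.03 ± 0.15 SE, limma adjusted p = 0.885), and Cd28 had 11.3 ± 1.15 on day 21 and 5 ± 1 on day 4 (−0.17 ± 0.15 SE, limma adjusted p = 0.338). The 2 comparisons share the day 4 lists.

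Both Icos calls rest on the full lists. On the 19499 strongest peaks of each list its differences were 0.19 on day 8 against day 4 (limma, adjusted p = 0.956) and 0.07 on day 21 against day 4 (limma, adjusted p = 0.958). Icos passed under the other 18 of 19 alternatives in each comparison. The lowest adjusted p (limma, 8.27e-38 and 4.30e-41) came without division by list length, where 6796 and 6691 of 7831 genes were higher. The highest among those that passed was 0.0108 and 0.00102 (limma), where peaks had to cover a minimum share of a region. With no floor on the spread it was 0.000460 and 0.000284 (limma). On those strongest peaks Cd28 passed on day 21 against day 4, with 0.50 ± 0.15 SE (limma, adjusted p = 0.0478). In that fit 119 of 7831 genes were higher and 78 lower. Without division by list length all 3 genes were higher on day 8 than on day 4, with 2.21 for Icos, 1.16 for Ctla4 and 1.26 for Cd28, where the median of all genes was 1.17.

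Between days 21 and 8 no member passed. The log2 differences were 0.11 for Icos (limma, adjusted p = 0.987), 0.17 for Ctla4 (limma, adjusted p = 0.922) and −0.13 for Cd28 (limma, adjusted p = 0.980). Their 95% intervals were −0.19 to 0.40, −0.12 to 0.46 and −0.42 to 0.16. Of all genes 0.345% were higher and 0.255% lower.

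Regions called in every list can also be compared by rank, which does not depend on list length. Each region was ranked by fold enrichment among the 15109 common regions of a list, and probit-transformed ranks were compared with limma over all of them. This says whether a region moved relative to other common regions, not whether it opened or closed, and it takes in 10 of the 52 members. Of all common regions, 12.9% ranked higher and 15.4% lower on day 8 than on day 4.

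The region over the Ctla4 start fell in rank. It stood at the 2.19, 7.77 and 11.5 percentile in the day 8 lists and at 9.10, 4.51 and 11.4 in the day 21 lists, against 25.1, 33.4 and 18.0 in the day 4 lists. Both later days lay below day 4 without overlap, with a probit difference of −0.87 ± 0.25 SE for day 8 against day 4 (limma, adjusted p = 0.0182) and −0.74 ± 0.25 SE for day 21 against day 4 (limma, adjusted p = 0.0359). Its summit tags, like those of common regions in general, were higher in the later lists, with 45, 60 and 65 on day 8 and 62, 51 and 73 on day 21, against 27, 26 and 28 on day 4.

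The region over the lower end of Cd28 also ranked lower on day 21 than on day 4. It stood at 41.4, 44.1 and 28.9 on day 21, against 51.7, 75.6 and 58.2 on day 4, which do not overlap (−0.62 ± 0.22 SE, limma adjusted p = 0.0402), while 14.7% of common regions were higher and 17.3% lower. On day 8 it stood at 36.1, 44.2 and 40.4, a difference from day 4 of −0.56 that did not pass (limma, adjusted p = 0.0646). These were the calls among the 10 regions, 1 for day 8 against day 4 and 2 for day 21 against day 4.

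The calls depend on the measure of rank. When regions were ranked by −log10 p in place of fold, the Ctla4 start had −0.58 on day 8 against day 4 (limma, adjusted p = 0.180) and −0.37 on day 21 against day 4 (limma, adjusted p = 0.412), and the Cd28 end −0.17 (limma, adjusted p = 0.619). Over all alternatives the Ctla4 start passed in 11 of 13 and 7 of 13, with adjusted p from 0.0113 to 0.180 and from 0.0138 to 0.412. Its call on day 8 ended without day 8 list 1 (limma, adjusted p = 0.0972), and that on day 21 without day 4 list 1 or 2 or any day 21 list (limma, adjusted p = 0.0545 to 0.140). The Cd28 end passed in 5 of 13, from 0.0223 to 0.619, and its call was kept without day 4 list 1 or 3 and ended without any other list (limma, adjusted p = 0.157 without day 21 list 3).

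**Figure D3:**
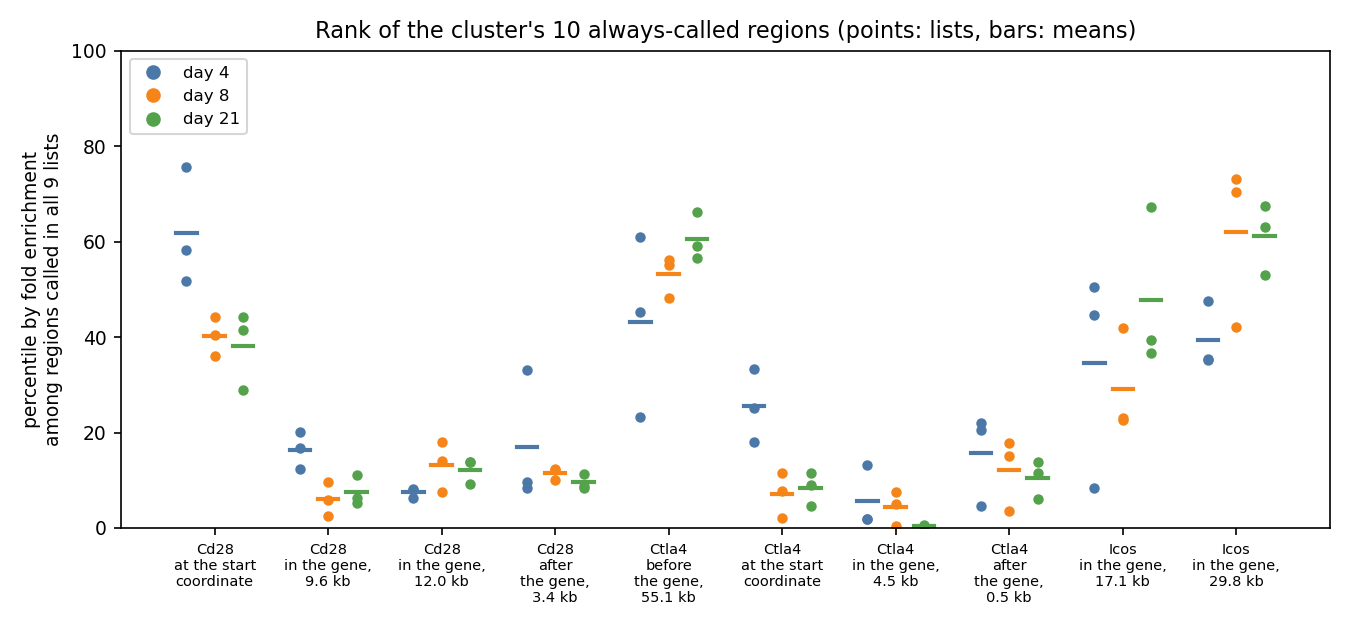
Percentile of each of the 10 always-called regions by fold enrichment among the 15109 regions called in all 9 lists (vertical axis), by day. Points are lists and bars are means over 3 lists. At the Ctla4 start the later lists lie between 2.19 and 11.5 and the day 4 lists between 18.0 and 33.4, and in Icos at 29.8 kb the later lists reach 73.1.

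The other always-called regions did not pass. The one 29.8 kb into Icos came nearest to a higher rank, at the 42.1, 73.1 and 70.5 percentile on day 8 and at 67.5, 63.1 and 53.0 on day 21, against 35.2, 35.4 and 47.5 on day 4. Its differences from day 4 were 0.59 ± 0.24 SE on day 8 (limma, adjusted p = 0.0708) and 0.56 ± 0.24 SE on day 21 (limma, adjusted p = 0.0798). The region inside Ctla4 at chr1:60913276-60913754 was among the lowest of all common regions on day 21, at 0.688, 0.338 and 0.357, against 1.91, 13.1 and 1.81 on day 4 (−0.86 ± 0.33 SE, limma adjusted p = 0.0578).

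Between days 21 and 8 the ranks were taken over the 34555 regions called in all 6 lists, 28 of them at the cluster, and 0 of the 28 passed, where 0.394% of all were higher and 0.214% lower (limma). At an unadjusted p under 0.05 stood 5 of the 28, where 16.5% of all regions did. Nearest were the region in 2310016D23Rik, at the 77.1, 83.1 and 87.6 percentile on day 21 against 51.5, 64.0 and 63.8 on day 8 (0.70 ± 0.17 SE, limma adjusted p = 0.0791), and chr1:61045833-61046621 beyond Icos, at 46.8, 25.5 and 23.3 on day 21 against 3.06, 4.55 and 12.3 on day 8 (1.09 ± 0.28 SE, limma adjusted p = 0.0910). The region beyond Icos passed when ranked by −log10 p (1.53, limma adjusted p = 0.0138), as 1 of 10 alternatives, with adjusted p up to 0.224.

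The local background behind the peaks differed along the cluster. A peak's fold and −log10 p together give the whole number of tags at its summit and the background the caller set against it, and that background was expressed as a multiple of the smallest one of the list. For regions in Cd28 the median multiple was 2.04 ± 0.0457 on day 4, 3.98 ± 0.176 on day 8 and 5.13 ± 0.262 on day 21 (SD, n = 3 lists each). In Ctla4 it was 1.97 ± 0.167, 4.84 ± 0.339 and 4.49 ± 0.146 on the 3 days, and in Icos 1.21 ± 0.0432, 1.71 ± 0.0760 and 1.79 ± 0.138. Around Cd28 and Ctla4 it was thus above that of all always-called regions, which was 1.60 ± 0.0198, 2.72 ± 0.0579 and 2.61 ± 0.0707, and in Icos below it. The values of the 3 genes, however, take in every called region, always called or not. For all regions called in a list the multiple was 1.52 ± 0.0452, 1.71 ± 0.0496 and 1.68 ± 0.0733. Cd28 and Ctla4 lay above this as well, while Icos lay below it on day 4 and close to it on days 8 and 21.

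Outside the 3 genes the multiple was 1.33 ± 0.214 on day 4, 1.10 ± 0.0576 on day 8 and 1.14 ± 0.0479 on day 21, close to the floor of 1. At the Ctla4 start it stood at 4.38, 4.25 and 3.83 on day 8 and at 4.22, 3.99 and 3.82 on day 21, against 1.86, 1.66 and 1.68 on day 4. Among common regions this was the 81.5 to 85.9 percentile on day 8 and 83.4 to 86.2 on day 21, against 53.8 to 66.1 on day 4, while its summit tags ranked at 21.6 to 41.3 on day 8 and 29.1 to 46.3 on day 21, against 27.5 to 39.2 on day 4. The region in Cd28 at chr1:60755788-60756229 reached 95.6 to 96.6 by background on day 21, against 77.8 to 83.3 on day 4, and by tags it stood at 76.8, 60.5 and 69.3 on day 21, against 42.6, 37.5 and 50 on day 4.

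**Figure D4:**
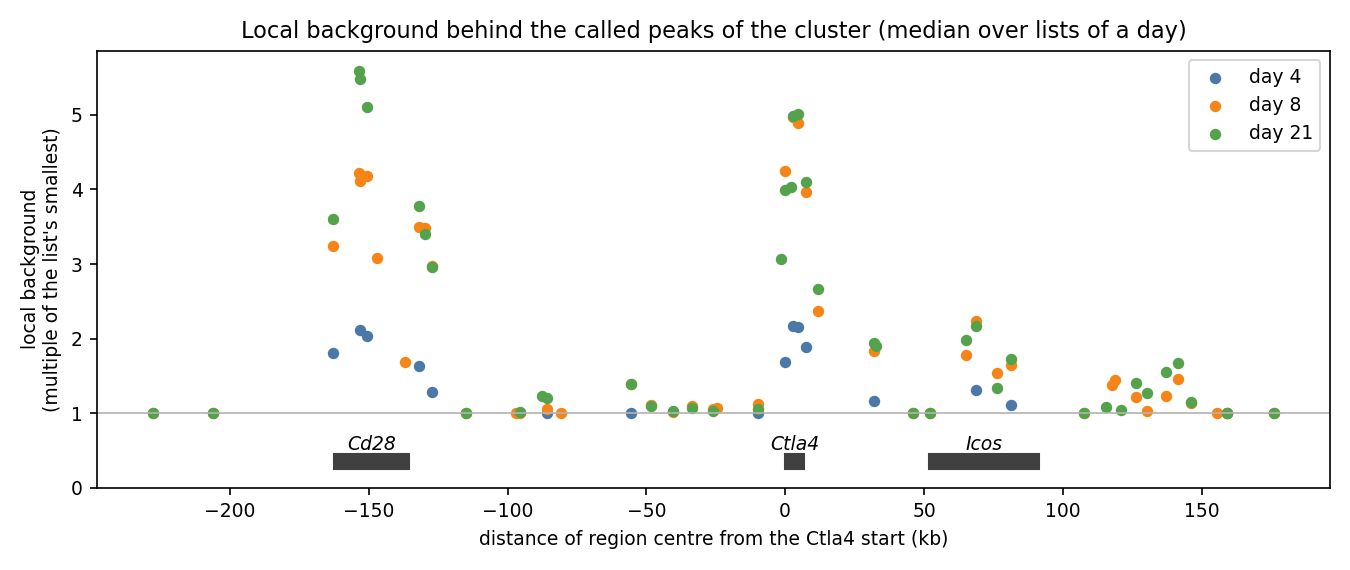
Local background behind each called region of the cluster (vertical axis, as a multiple of the smallest background of the list, median over the lists of a day that called it), by distance from the Ctla4 start (kb, horizontal axis), with the gene bodies as bars. Regions in and next to Cd28 and Ctla4 reach 5.59 on the later days, against at most 2.16 on day 4, and most regions between the genes lie close to 1.

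Because a fold is taken over this background, the fold of a region inside Cd28 or Ctla4 stands for more tags than the same fold between the genes. On day 21, for example, chr1:60755788-60756229 had 84, 70 and 90 summit tags at folds of 5.90, 5.15 and 5.21, while chr1:60882737-60883168 before Ctla4 had 27, 30 and 35 at folds of 8.26, 8.42 and 8.65. The part of the background in the rank calls was not tested. These values were chosen for description after they had been seen.

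The 5 receptor genes of the CD28 family, the 3 members with Pdcd1 and Btla, had 1 higher (Icos) and 2 lower on day 8 against day 4, with a median log2 difference of −0.14, the same as that of all genes. The lower ones were the inhibitory receptor genes Pdcd1, with 5, 5 and 6 regions on day 8 against 3, 4 and 3 on day 4 (−0.69, limma adjusted p = 0.000595), and Btla, with 6, 6 and 5 against 3 in each list (−0.49, limma adjusted p = 0.0290). Both had more regions on day 8. With all 8 of their union regions called Pdcd1 could have reached −0.14 and Btla −0.02, so list length and the number of regions fixed their sign. On day 21 against day 4, 1 was higher (Icos) and 1 lower, Btla with 4 regions in each list (−0.93, limma adjusted p = 1.92e-05, upper limit −0.01). Pdcd1 had 8, 8 and 7 regions on day 21 and did not pass (−0.19, limma adjusted p = 0.383).

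Of the 6 tested ligand genes of the family, 1 was higher and 1 lower on day 8 against day 4. Cd276, whose product is B7-H3, had 3 regions in every day 8 list and 0 on day 4 (1.50, limma adjusted p = 0.00257), and Icosl, the gene of the ICOS ligand, had 5, 5 and 6 of 6 regions against 4, 2 and 4 (−0.65, limma adjusted p = 0.00218). Its upper limit was −0.49, so its sign was fixed as well. On day 21 against day 4, Icosl (−0.64, limma adjusted p = 0.00282) and Cd274, which encodes PD-L1 (−0.80, limma adjusted p = 0.00135), were lower and 0 higher, with upper limits of −0.48 and −0.15. Cd274 had 3 regions in each day 21 list and 2 in each day 4 list. The list's median log2 difference was −0.31 on day 8 and −0.24 on day 21 against day 4. Cd274 had −0.48 on day 8 against day 4, Cd86 had 0.29 and 0.35, and Pdcd1lg2 −0.34 and −0.41 on days 8 and 21 against day 4, and none of these passed. Cd80 had 2 union regions, too few to test, called in every list but 1 of day 4.

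Of 22 tested genes that carry signals of CD28 and ICOS, 3 were higher and 5 lower on both day 8 and day 21 against day 4. Their median log2 difference was −0.13 in each, against −0.14 and −0.15 for all genes. Over all genes 17.7% and 17.1% were higher and 24.9% and 24.6% lower. Higher on both days were the adaptor gene Lcp2 (0.90 and 1.03), with 12, 11 and 12 regions on day 8 against 1, 3 and 3 on day 4, and Nfatc1 (0.65 and 0.68), which encodes an NFAT factor activated by calcium signals. Called lower on both days were Bcl10, a scaffold of the NF-kB pathway (−0.98 and −0.56), Pdpk1, the kinase that activates AKT (−0.83 and −0.98), and Lck, the kinase bound to CD4 and CD8 (−0.81 and −0.58), with limma adjusted p of 0.0342 or less for these 5 genes. The upper limits were below 0 on both days, at −0.45 and −0.44 for Bcl10, −0.75 and −0.74 for Pdpk1, and −0.26 and −0.25 for Lck. All 3 had as many or more regions in the later lists, with 2, 3 and 3 on day 8 against 2 in each day 4 list at Bcl10, 5, 6 and 6 against 3, 4 and 5 at Pdpk1, and 6, 5 and 5 against 4, 3 and 4 at Lck.

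Of 10 tested genes for the turnover of CTLA-4 and ICOS and for brakes on their signals, 3 were higher and 2 lower on day 8 against day 4, and 2 each on day 21 against day 4. Over all genes 17.7% and 17.1% were higher and 24.9% and 24.6% lower in these comparisons. The list's median log2 difference was −0.35 and −0.10, against −0.14 and −0.15 for all genes. Dennd1b, a regulator of vesicle traffic (1.01 and 0.99), and Lrba, which protects CTLA-4 from degradation (0.64 and 0.70), were higher on both days. Called lower were Ap1m1, an adaptor of vesicle coats (−0.65), and the ubiquitin ligase gene Cblb (−0.29) on day 8, and the ubiquitin ligase gene Itch (−1.29) and Rab11a (−1.04), of recycling endosomes, on day 21. Adjusted p was 0.0362 or less for these 6 genes (limma). Upper limits were −0.41 for Ap1m1 and −0.04 for Cblb on day 8, and −0.07 for Itch and Rab11a on day 21. Itch had 1 region in every list of days 21 and 4, so its value comes from list length alone. On day 21 against day 8, 0 genes of these 4 lists passed in limma.

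Markers of other cell types also had more regions in the later lists, and on the full lists some rose beyond list length. Summed over 6 CD8 T cell genes, 10 to 14 regions were called on day 4, 32 to 36 on day 8 and 32 to 37 on day 21, and all 6 had a region on each day. For 5 genes of CD4 and regulatory T cells, which use ICOS and CTLA-4 heavily, the sums were 7 to 8, 27 to 28 and 25 to 27, and Foxp3, the defining gene of regulatory T cells, had no region in any list. Of B cell genes, Pax5 had 1, 0 and 0 regions on day 4, 4, 6 and 5 on day 8, and 5, 4 and 6 on day 21. Ebf1 had 0 in every day 4 list, 4 in every day 8 list, and 2, 3 and 5 on day 21. Divided by list length, both were higher than on day 4, Pax5 by 1.61 on day 8 and 1.62 on day 21 and Ebf1 by 1.87 and 1.57 (limma, adjusted p of 5.41e-05 or less). Cd79a was at 0 on day 4 and Ms4a1 at 0 throughout. For 4 endothelial and stromal genes, all at 0 on day 4, the sums were 0, 13 to 15 and 12 to 14. Of these 4, 3 were higher than on day 4 on both later days, Cdh5 (1.96 and 2.25), Kdr (2.06 and 1.36) and Pdgfra (1.84 and 1.76), with limma adjusted p of 0.000577 or less. These full-list values lay above those of Icos (0.91 and 1.02), and the difference was not tested. On equal-length lists of the strongest peaks, 0 of these 4 genes were higher on either day, and Pax5, Ebf1 and Icos did not pass. The median of the 4 was then −0.09 on both days against day 4, the same as that of all genes. On the full lists their median was 1.90 on day 8 and 1.56 on day 21 against day 4. That of the CD8 T cell genes was 0.24 and 0.30, with 2 of 5 higher and 1 lower. That of the CD4 and regulatory T cell genes was 0.16 on both days, with 2 and 1 of 4 higher and 0 lower. The 5 melanocyte genes gave 4 to 6, 8 to 9 and 10 to 12, with Tyr at 0 throughout and Dct at 0 on day 4. Of 3 tested 0 were higher, 2 were lower on day 8 (Mitf and Pmel) and 1 on day 21 (Pmel). Pmel had all 3 of its regions in every list. Its differences of −1.30 and −1.29 equal its upper limits, so they come from list length alone. Mitf had −0.57, with an upper limit of 0.08. The 4 myeloid genes gave 1 to 2, 6 and 6 to 7. Lyz2 was at 0 throughout, Csf1r at 0 on days 4 and 8 and Cd14 at 0 on day 4. The 1 tested, Itgam, did not pass on the full lists. On equal-length lists of the strongest peaks Itgam was higher on days 8 and 21 than on day 4 (0.97 and 1.13). The median of all genes was −0.09 in both of these comparisons. The part of other cells in the later regions of the cluster was not tested.

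The neighbours on either side also had more regions in the later lists. Raph1, which encodes an actin regulator, had a log2 difference of 1.54 on day 8 and 1.53 on day 21 against day 4 (limma, adjusted p = 1.85e-09 and 2.34e-09), and Pard3b, a cell polarity gene, had 1.44 and 0.95 (limma, adjusted p = 3.30e-05 and 0.00782). On the full lists the number of regions thus rose beyond list length at Raph1, Icos and Pard3b. This was not called at Cd28 and Ctla4 between them.

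Genes with the most similar shares of regions called over the 9 lists were found by Euclidean distance among 3142 other genes with at least 6 union regions. Nearest to Icos were Nav2 (distance 0.101), Ttll11 (0.106) and Mbnl1 (0.128). Nearest to Ctla4 were Pxylp1 (0.107), Xdh (0.123) and Dars (0.128), and nearest to Cd28 were Nin (0.124), Dedd2 (0.130) and Suclg2 (0.158). The profile of Nav2, for example, was 2, 3 and 4 of 26 regions on day 4, 17, 18 and 20 on day 8, and 18, 16 and 19 on day 21.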

How the data were processed

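The material was 9 deposited narrowPeak lists, 3 per day, with mm10 coordinates. The tools named in the submitters' processing notes are MACS2, deepTools 2.0, Picard and BWA 0.7.15. Their settings, the peak threshold and any shift of reads for Tn5: not given in the sources used here. Each peak has a fold enrichment over local background, a −log10 p and a −log10 q, which the authors deposited; none is a read count, and the depth is unknown. Groups were read from the sample titles, since the time point and genotype tags carry each other's values.

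Peaks of chromosomes 1 to 19 and X (353295) were joined into union regions with pandas 2.3.3 (Python 3.11.15) and placed by RefSeq gene positions of GRCm38.p6 for 21631 protein-coding genes, with 59998 regions placed. Each day was compared with the other 2 in limma 3.58.1 (R 4.3.3), with one fit over all 9 lists for genes and the p-values adjusted by the Benjamini-Hochberg method over all features, at a threshold of 0.05. Day 21 against day 8 ranks used the 6 later lists. For genes the residual SD had a floor, the spread of 1 region called with probability 0.5. Summit tags were recovered from fold and −log10 p with the whole tag count kept where −log10 p was met within 0.001. The fits were tested on simulated data. An exact permutation test of 3 lists against 3 cannot go below 0.1.

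Same-numbered lists did not deviate together (correlations −0.0292 to 0.0606 for genes and −0.0023 to 0.0312 for ranks, 9 pairs), so numbers were not used as pairs. The members, gene lists and tests were chosen with earlier results of these data known. Named are the members, the nearest gene on each side, the family's receptors and ligands, up to 2 genes per direction of each other list (largest differences past the threshold) and the 3 most similar genes per member. A floor set on the moderated spread was added as an alternative after seeing the data. The summed B cell marker list is not reported here.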

Additional observations from a re-analysis of the deposited data

How the results depend on the processing

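Peak lists give calls, not levels, so the main limit is detection, since day 4 lists had lower summit tags and fewer peaks. Values below are log2 differences of later minus earlier day or counts, and the cause of each change was not tested unless the setting itself sets it. Icos on day 8 and day 21 against day 4 passed under every setting except equal-length lists (0.19 and 0.074), and without 1 list it was 0.77 to 1.03 and 0.88 to 1.14.

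Without division by list length, Cd28 was 1.26 on day 8 and 1.12 on day 21 against day 4, and Ctla4 1.16 and 1.32. With equal-length lists, Cd28 was 0.17 on day 8 and 0.50 on day 21 against day 4, and 0.33 on day 21 against day 8; Icos was −0.12 on day 21 against day 8 and Ctla4 −0.18 on day 21 against day 4. With peaks required to cover 50% of a region, Cd28 was 0.088 on day 8 and Ctla4 −0.16 on day 21 against day 4. Ctla4 was 0.041 on day 8 with a 50 kb window and −0.051 on day 21 with a pseudocount of 1. None of these values of Cd28 and Ctla4 passed except those without division and the 0.50. Without 1 list, Cd28 on day 8 ranged over −0.16 to 0.088 and Ctla4 on day 21 over −0.13 to 0.12.

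The 3339, 47 and 3259 genes called on day 8 against 4, day 21 against 8 and day 21 against 4 became 6799, 31 and 6692 without division, 206, 89 and 197 with equal-length lists, and 1281, 0 and 1245 among genes with at least 6 regions. For day 21 against 8 they were 0 with 50% cover, 2 with no floor on the spread, 0 with the floor on the moderated spread, and 9 to 94 without 1 list. The counts of 0 had 281, 522 and 709 genes at an unadjusted limma p under 0.05 (6 regions, cover, moderated floor). The share called higher was 41.5% on day 8 and 41.0% on day 21 against day 4. It was 19.9% and 19.6% with a pseudocount of 1, 29.0% and 28.2% with 50% cover, 52.8% and 56.2% with 6 regions, and 56.8% and 60.4% with equal-length lists.

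The 4286, 210 and 4834 common regions called by rank became 2371, 2610 and 2518 with −log10 p. For day 21 against 8 they were 10 with untransformed ranks and 3 among regions of all 9 lists. Without 1 list they were 2789 to 4167 for day 8 against 4 and 2 to 39 for day 21 against 8. Of the cluster's regions, 0, 1 and 1 passed with −log10 p (main 1, 0 and 2), and 2 on day 8 with untransformed ranks; without 1 list it was 1 to 2 on day 8 and 0 to 4 on day 21 against day 4.

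Ranked by −log10 p, the region 3.42 kb after Cd28 was 0.057 on day 8 and 0.056 on day 21 against day 4, and that 55.1 kb before Ctla4 −0.12 on day 8. That at chr1:60755788-60756229 in Cd28 and that 0.455 kb after Ctla4 were each 0.11 on day 21. Without 1 list, directions turned for the region 3.42 kb after Cd28 (−0.33 to 0.14 on day 8, −0.44 to 0.028 on day 21), 55.1 kb before Ctla4 (−0.000878 to 0.50 on day 8), 4.49 kb into Ctla4 (−0.42 to 0.23), 0.455 kb after it (−0.46 to 0.12) and 17.1 kb into Icos (−0.50 to 0.19, all on day 8).

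The cluster had 7 regions called per day 4 list with 50% cover, and 13.7 on day 8 and 15 on day 21 with equal-length lists. With those lists 0 regions were gained on day 8 and 2 on day 21 against day 4, and 1 was lost on day 21. Without 1 list, gains on day 21 against 8 were 1 to 2 and losses 0 to 1.

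With the replicate number as a block, Icos was 0.91 and 1.02 (limma, adjusted p = 1.60e-07 and 3.55e-09), and 28 genes and 102 common regions passed for day 21 against 8. The Ctla4 start kept its calls (limma, adjusted p = 0.0251 and 0.0457), and the region 4.49 kb into Ctla4 also passed on day 21 against day 4 (−0.86, limma adjusted p = 0.0437). The block changed no other call of the members.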
